A study of Homo sapiens with 12 samples.

Results

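The comparison described here is that of the 3 libraries labelled GSI 48 h with the 3 labelled DMSO 48 h, 6 of the 12 libraries of the series, with the replicate number used to pair them. All libraries were made from CUTLL1, an established cell line of human T-cell leukaemia in which a rearranged NOTCH1 gene gives constant NOTCH1 activity. Cells received 1 µM Compound E, a gamma-secretase inhibitor (GSI), or the solvent DMSO, and poly-A RNA was sequenced after 48 h. The other 6 libraries carry the same treatments at 12 h and entered the fit, where they share the estimate of the spread. The members are the 19281 genes with a value of at least 10 in at least 3 of the 12 libraries. Separate cultures are not named in the labels for the libraries of a group. The p-values therefore cover the spread among these libraries of 1 cell line and nothing wider.

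Gamma-secretase cuts the NOTCH receptor at the membrane and frees its intracellular part, which moves to the nucleus and switches on target genes together with the DNA-binding protein RBPJ. In T-cell leukaemia these targets include MYC, a transcription factor whose own targets make ribosomes, nucleotides and protein-folding factors. A gamma-secretase inhibitor blocks the cut, and the comparison asks which transcripts differ when it is present.

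The T cell identity of the line was visible in all 6 libraries at 48 h. The summed normalised read count of 7 T cell markers, among them the CD3 chains, CD5, CD7 and LCK, was 256654 to 303550 in the DMSO libraries and 226209 to 241831 in the GSI libraries. Of 6 B cell markers only CD79A was kept, and MS4A1 and CD22 were at 0 in all 6 libraries. The labels themselves have a limit that bears on every result below: NOTCH1 target genes such as NRARP differed more between time labels than between treatment labels. NRARP, a feedback inhibitor induced by NOTCH1, had normalised read counts of 36766, 49346 and 40943 in the DMSO 12 h libraries and 16831, 25383 and 23575 in the GSI 12 h libraries, against 3186, 3564 and 2339.9 and 1995, 1776 and 1333 at 48 h. Directions are therefore those of the libraries labelled GSI and DMSO. Recovered reads ranged from 73939612 to 133774239 in the GSI and from 94803786 to 160702764 in the DMSO libraries at 48 h, and the GSI library numbered 2 was the deepest of its group. Because these are bulk samples, fewer cells of a kind and less RNA per cell cannot be told apart.

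With the pairing used, the libraries labelled GSI at 48 h had lower levels of genes that build ribosomes, fold and degrade proteins, splice RNA and present antigen. All gene lists were written with earlier results of these data known, so their directions are not independent evidence. Of 41 ribosome biogenesis factors 39 fell, as did all 8 subunits of the CCT chaperonin and 49 of 72 mitochondrial ribosomal proteins, against 15.5% of all genes. Genes of the hypoxia response were higher (21 of 32, against 11.8% of all genes), with smaller groups of clock (12 of 21) and quiescence genes (9 of 26). In the fit of 12 libraries, IFI6, TAP2, CD3D, NPM1 and PSMA5 are examples called lower only with the pairing, and NOTCH3 and MXI1 examples called higher only with it.

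With the replicate number as a block, 5261 genes (27.3%) were called at an adjusted p under 0.05, 2272 higher (11.8%) and 2989 lower (15.5%) in the libraries labelled GSI. Without the block 1866 genes (9.68%) were called, 834 higher (4.33%) and 1032 lower (5.35%), and all of them were among the 5261. The block left every fold change as it was, because each number occurs once in each group, and lowered the median standard error from 0.18 to 0.14 (log2). The 3395 genes (17.6%) called only with the block comprised 1438 higher (7.46%) and 1957 lower (10.1%). Their median absolute log2 fold change was 0.39, against 0.68 for the 1866 genes called either way, and 351 of them (10.3%) differed by at least 2-fold. In 99.2% of them the GSI library was on the same side of its DMSO partner in all 3 pairs, against 56.6% of all genes kept. In 75.2% the groups did not overlap even without pairing, against 35.4% of all genes kept. A paired test favours genes of both kinds, so these shares describe the choice. The genes that were higher had a median log2 difference of 0.57 and a median level of 521 normalised read counts, whereas those that were lower had a median absolute difference of 0.32 and a median level of 4459. The genes added by the pairing were thus mostly moderate differences. Those that fell had higher counts than those that rose (the median over all genes kept was 722) and a smaller median SE, 0.08 against 0.15. Counts are not per gene length, so they do not rank transcripts by abundance.

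The pairing has a limit that was measured beside it. Over 12794 genes, deviations from the group mean correlated at only 0.12 to 0.20 between same-numbered GSI and DMSO libraries at 48 h, and at −0.25 to 0.07 between libraries of other numbers. Same-numbered libraries of the same treatment at 12 and 48 h correlated at 0.72 to 0.85. These correlations are across genes and are descriptions. The additive block fitted to 12 libraries pools a larger spread of treatment by number (median SD 0.219 on the log2 scale) with smaller spreads of time by number (0.104) and of all 3 terms (0.0944). Where the first spread is the larger, the SE and adjusted p of that fit can be too small for GSI against DMSO. The fit restricted to the 6 libraries at 48 h, still paired, does not pool these spreads and called 3560 genes (18.5%), 1563 higher (8.11%) and 1997 lower (10.4%). It shared 3434 calls (17.8% of all genes) with the fit of 12 libraries. Of the 3395 added genes, 1626 (47.9% of them, 8.43% of all genes) were also called there. For most groups of genes below, the count at 48 h alone covers all members called in that fit, whether or not the pairing added them.

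**Figure D1:**
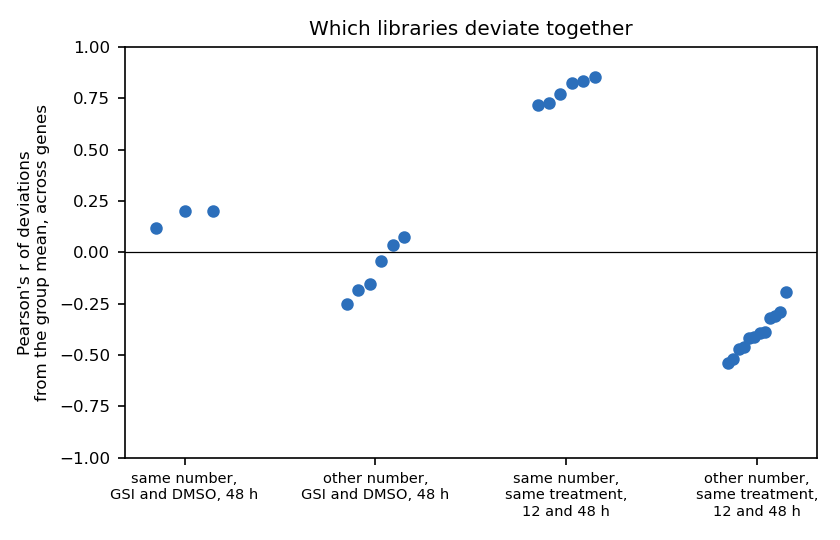
Correlation across 12794 genes of the deviations of 2 libraries from their group means, with 1 point per pair of libraries. Same-numbered GSI and DMSO libraries at 48 h lie between 0.12 and 0.20, far below same-numbered libraries of 1 treatment at the 2 times, at 0.72 to 0.85.

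The count depended on the libraries numbered 1. Without all 4 libraries numbered 1 the blocked limma fit called 425 genes (4772 at an unadjusted p under 0.05), against 4421 without number 2 and 3011 without number 3. Without a single library at 48 h (DMSO 1 being the DMSO library numbered 1, and so on) it called 2450 (DMSO 1), 4726 (DMSO 2), 2978 (DMSO 3), 2647 (GSI 1), 4235 (GSI 2) and 3174 (GSI 3). Under upper-quartile scaling of the libraries 5097 genes were called, 3352 higher and 1745 lower, so the excess of lower genes depends on the deposited scaling. The median of all genes moved from −0.0039 to 0.085 (log2) under that scaling. Of the 166 called genes chosen by the naming rule, 88 were called whichever of the 12 libraries was left out. For a named gene that was not, the highest adjusted p reached with 1 library left out follows its values.

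Ribosome production formed a nearly complete group of lower genes. Of 41 ribosome biogenesis factors kept, 39 fell and none rose with the block, 26 fell without it, and 38 fell in the paired fit of the 48 h libraries alone. The list median was −0.55 (log2), against −0.0039 for all genes kept. NPM1, nucleophosmin, a nucleolar chaperone of ribosome assembly, had 109113, 134553 and 118706 normalised read counts in the DMSO libraries numbered 1, 2 and 3 and 75112, 100762 and 93755 in the GSI libraries. All GSI values lay below all DMSO values, and each pair fell (log2 difference ± SE −0.43 ± 0.06; adjusted p = 0.00115 with the block, 0.0504 without, 0.013 at 48 h alone). Differences of single genes below are likewise on the log2(value + 1) scale, with the SE after ±. BRIX1, an assembly factor of the large subunit, and NHP2, a core protein of H/ACA small nucleolar particles, were also added by the pairing (−0.55 ± 0.09 and −0.59 ± 0.09; adjusted p = 0.00245 and 0.00209). Without number 1, 8 of the 41 were called lower, and with any single library left out at least 36 were.

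Neighbouring steps of ribosome and RNA modification moved the same way. Of 36 RNA polymerase I and III genes, which transcribe ribosomal and transfer RNA, 22 fell and none rose with the block, 9 fell without it and 19 at 48 h alone (list median −0.30). POLR3G, a subunit of RNA polymerase III found in proliferating and stem cells, stood at 801, 1149 and 823 normalised read counts in DMSO 1, 2 and 3 and at 522, 681 and 507 in GSI 1, 2 and 3. The groups did not overlap, and the difference was −0.69 ± 0.10 (adjusted p = 0.00176 with and 0.0657 without the block). POLR1E and POLR3D, subunits of polymerase I and III, fell by less (−0.35 ± 0.06 and −0.35 ± 0.07). Of 22 protein arginine and rRNA methyltransferases 17 fell with the block, 11 without and 16 at 48 h alone (list median −0.37), among them NOP2, which methylates large-subunit rRNA (−0.46 ± 0.09, adjusted p = 0.00635). At least 13 of the polymerase genes and 12 of the methyltransferases were called lower whichever library was left out, and without number 1 the counts were 4 and 0.

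Genes for the proteins of the mitochondrial ribosome were called lower more often than those for the cytosolic ribosome. Of 72 mitochondrial ribosomal proteins 49 fell and none rose with the block, 22 fell without and 38 at 48 h alone, with a list median of −0.34. MRPL21, of the large mitochondrial subunit, was measured at 3619, 4542 and 4382 in the DMSO and 2515, 3632 and 3052 in the GSI libraries (normalised read counts, numbers 1, 2 and 3). Its groups overlapped by a single library, the GSI library numbered 2, which lay just above the DMSO library numbered 1, while every pair fell (−0.46 ± 0.07; adjusted p = 0.00148 with and 0.0702 without the block). Of 77 cytosolic ribosomal proteins 12 fell and 1 rose with the block, 3 fell without, and 4 fell and 1 rose at 48 h alone. The share that fell with the block was close to the 15.5% of all genes kept. In all 16.9% of this list was called, against 27.3% of all genes. Its median of −0.08 became 0.01 under upper-quartile scaling, with 3 called lower and 4 higher. The 1 that rose was RPL13A (0.33 ± 0.07, adjusted p = 0.00851), and FAU, the precursor of the small-subunit protein RPS30, was among those that fell (−0.29 ± 0.07, adjusted p = 0.0131, up to 0.0796 with 1 library left out). Ribosomal protein genes have many processed pseudogenes, so their counts may be shared with copies. Whether the 2 lists of ribosomal proteins differ was not tested. Leaving out single libraries lowered the mitochondrial count to as few as 27 (DMSO 3) and the cytosolic count to 2 (DMSO 1), and without number 1 they were 1 and 0.

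Translation factors added to this pattern. Of 46, 23 fell and 1 rose with the block, 9 fell without it, and 21 fell and 1 rose at 48 h alone (list median −0.26). EIF2B1, a subunit of the exchange factor that recycles eIF2, had 8892, 9839 and 9391 normalised read counts in the DMSO libraries numbered 1, 2 and 3 and 6576, 8053 and 7439 in the GSI libraries. No GSI value reached a DMSO value (−0.35 ± 0.06; adjusted p = 0.00202 with and 0.0521 without the block). EIF1AX, which helps select the start codon, and EEF1E1, part of the complex that holds tRNA synthetases together, fell by 0.44 and 0.54 (adjusted p = 0.00381 and 0.00172). Of 22 aminoacyl-tRNA synthetases, 7 fell and 3 rose with the block, 4 fell and 1 rose without, and 8 fell and 3 rose at 48 h alone. WARS1, the tryptophan enzyme, was lower (−0.54 ± 0.14) and CARS1, the cysteine enzyme, higher (0.67 ± 0.19), with adjusted p of 0.0183 and 0.0241. Both calls depended on single libraries (adjusted p up to 0.0988 and 0.112 with 1 left out). The synthetase falls numbered 4 without DMSO 1 and the rises 1 without GSI 1, and without number 1 there were 2 and 1. At least 15 translation factors were lower with any 1 library left out, and 3 without number 1.

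**Figure D2:**
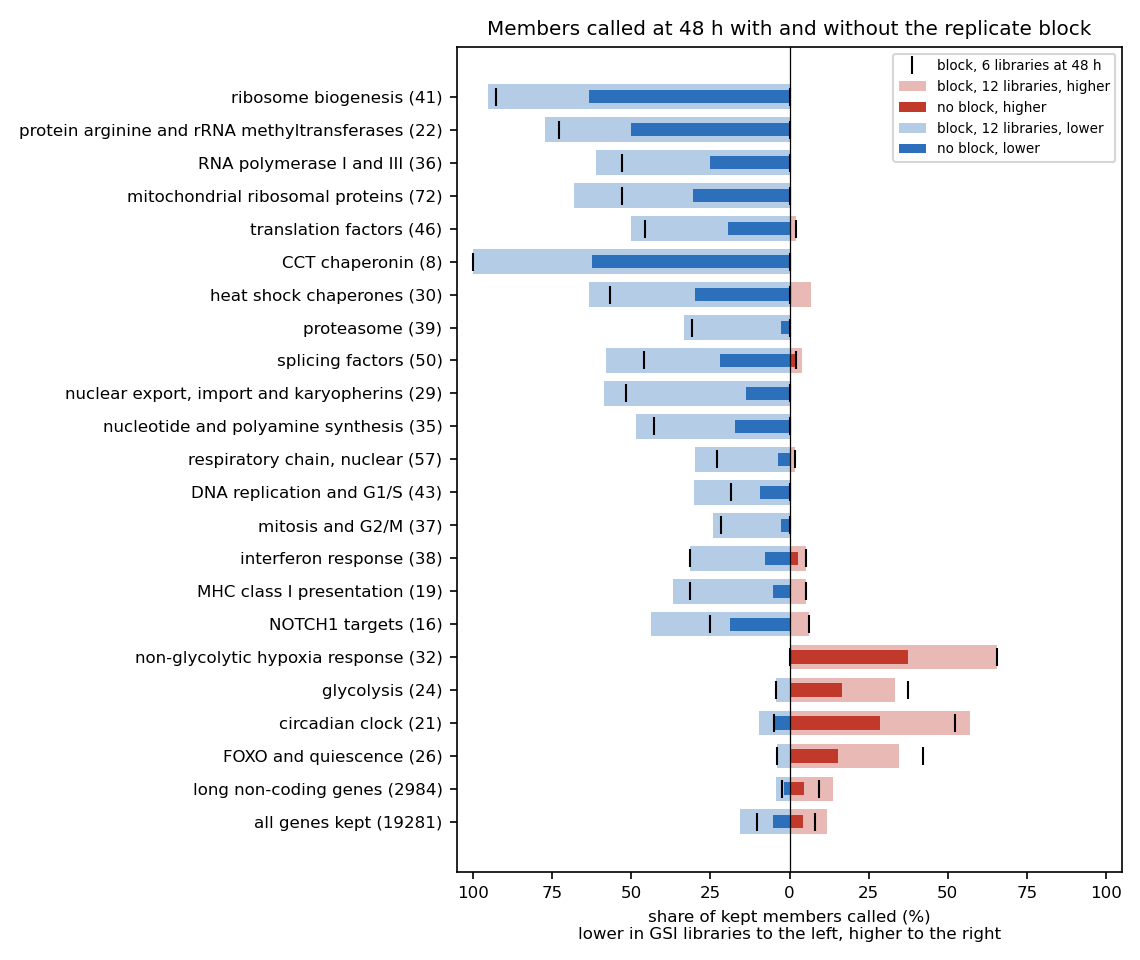
Share of the kept members of each list (number in brackets) called lower, to the left, and higher, to the right, in libraries labelled GSI at 48 h. Wide pale bars are the blocked fit of 12 libraries, narrow dark bars the fit without block, and ticks the paired fit of the 6 libraries at 48 h. Ribosome biogenesis (39 of 41) and the CCT chaperonin (8 of 8) reach the largest shares of lower members and the non-glycolytic hypoxia response (21 of 32) the largest share of higher ones, against 15.5% and 11.8% of all genes kept.

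Protein folding genes fell with them. All 8 subunits of the CCT chaperonin, the ring that folds actin and tubulin, fell with the block and at 48 h alone, against 5 without the block (list median −0.55). TCP1, the alpha subunit, stood at 36185, 44688 and 42153 normalised read counts in DMSO 1, 2 and 3 and at 25909.6, 36031 and 25435 in GSI 1, 2 and 3. The GSI library numbered 2 lay just below the lowest DMSO library and the other GSI libraries well below it (−0.51 ± 0.10; adjusted p = 0.0048 with and 0.0736 without the block). CCT8 and CCT2 were added by the pairing as well (−0.36 ± 0.08 and −0.44 ± 0.10, adjusted p = 0.00744 and 0.01), CCT2 with an adjusted p of 0.0511 without GSI 1. Of 30 heat shock chaperones 19 fell and 2 rose with the block, 9 fell without it and 17 fell at 48 h alone (list median −0.37). HSPA9, the mitochondrial HSP70, was measured at 46097, 52932 and 56225 in the DMSO and 31909, 44492 and 37136.5 in the GSI libraries (normalised read counts, numbers 1, 2 and 3). Each pair fell and the groups stood apart (−0.46 ± 0.07; adjusted p = 0.00138 with and 0.0513 without the block). DNAJA1, a co-chaperone of HSP70, fell by 0.83 (SE 0.15, adjusted p = 0.00379). At least 6 CCT subunits and 14 chaperones were lower whichever library was left out, and without number 1 only 1 of each.

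Proteasome genes also leaned lower, unevenly over the pairs. Of 39 subunits and regulators 13 fell and none rose with the block, 1 fell without it and 12 at 48 h alone (list median −0.29). PSMA5, a subunit of the 20S core, had 15959, 18623 and 18143 normalised read counts in the DMSO libraries numbered 1, 2 and 3 and 11498, 15174 and 11838 in the GSI libraries. In each pair the GSI library was lower, and the smallest fall was in number 2 (−0.46 ± 0.09; adjusted p = 0.00531 with and 0.0601 without the block). PSME3, the nuclear activator subunit, and PSMC3, an ATPase of the 19S cap, had differences of −0.46 ± 0.09 and −0.57 ± 0.13 (adjusted p = 0.00503 and 0.0106, the latter up to 0.0565 with 1 library left out). The list median was −0.28, −0.05 and −0.58 in pairs 1, 2 and 3. Under upper-quartile scaling 7 were called. Leaving out GSI 1 left 3 calls, leaving out both GSI libraries numbered 2 gave 25, and leaving out number 1 left none.

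**Figure D3:**
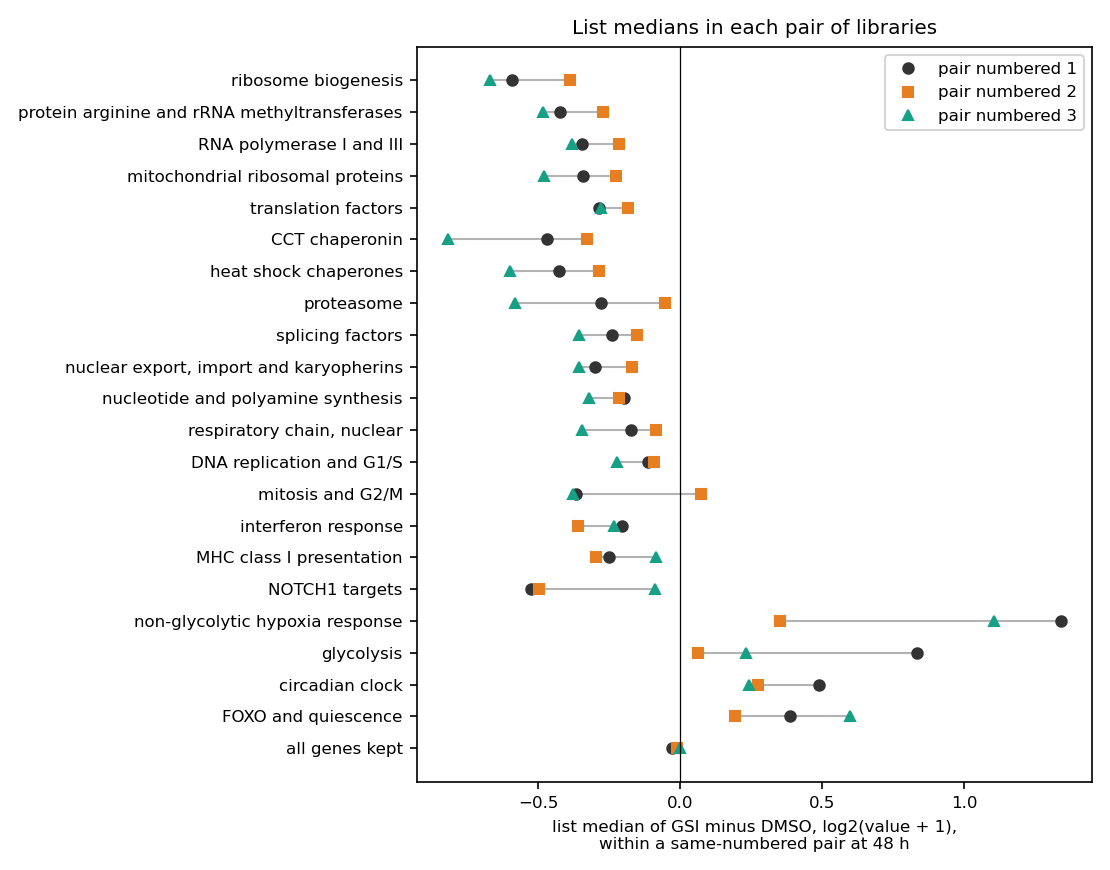
Median over the kept members of each list of the difference between the GSI and the DMSO library of the same number at 48 h, on the log2(value + 1) scale, with the range over the 3 pairs as a line. Pair 2 gives the smallest difference for the hypoxia response, glycolysis, the proteasome and most lists that fell and a positive median, 0.07, for mitosis genes, which were lower in pairs 1 and 3.

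Genes of the hypoxia response were higher. HIF transcription factors switch on these genes when oxygen is low, and act on promoters and enhancers that hold the core letters ACGTG. Of 32 such genes outside glycolysis, 21 rose and none fell with the block, 12 rose without it and 21 at 48 h alone, with a list median of 1.03. Like the other lists, this list was made with results of these libraries in view, so its direction is not independent evidence. By pair the median was 1.34, 0.35 and 1.10. P4HA1, a collagen prolyl hydroxylase, stood at 2201, 2543 and 2831.5 normalised read counts in DMSO 1, 2 and 3 and at 11223, 3561 and 6329.5 in GSI 1, 2 and 3. The GSI library numbered 1 was highest and that numbered 2 nearest to the DMSO libraries, without overlap (1.33 ± 0.35; adjusted p = 0.0184 with and 0.051 without the block, up to 0.0985 with 1 library left out). MXI1, a MYC antagonist of the MXD family, was measured at 3343, 2261 and 2276 in the DMSO and 4692, 3519.9 and 4957 in the GSI libraries (normalised read counts, numbers 1, 2 and 3). All 3 GSI libraries exceeded all DMSO libraries here too (0.75 ± 0.17; adjusted p = 0.0108 with and 0.056 without the block, up to 0.0545 with 1 library left out). The histone demethylases KDM3A and KDM4B rose by 0.71 and 0.59 (adjusted p = 0.0189 and 0.0376, up to 0.0934 and 0.172). BNIP3, a mitophagy receptor, ANKRD37 and PPFIA4, called either way, had differences of 2.34 ± 0.40, 1.61 ± 0.22 and 3.78 ± 0.58. Leaving out DMSO 3 reduced the list's count to 10, and leaving out number 1 reduced it to 5.

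Promoters are given here because the members moved together. Of the 32 hypoxia genes, 25 matched a RefSeq promoter (GRCh38.p14), and 17 of them (68.0%) held ACGTG on either strand in the 250 bases before the start, against 18.7% of 27305 RefSeq promoters. For CACGTG, the E-box read by MYC and the clock factors, which contains the same core, the shares were 28.0% and 6.49%. In the other lists searched, ACGTG stood in 0% (CCT chaperonin) to 44.4% (clock) of matched promoters. The heat shock chaperones, which leaned lower, held it in 37.0%. Whether the lists differ was not tested. The hypoxia list is one of known HIF-responsive genes, and a match describes letters, not a bound site. Windows of 90 bases upstream follow for 7 of these genes and for ALDOC of the glycolysis list, all picked among promoters that hold a match, 5′ to 3′ on the strand of the gene, with each ACGTG or its reverse complement CACGT in capitals, so that CACGTG marks a match on both strands.
The windows lie at chr17:28577046-28577135 (ALDOC, minus strand), chr10:73096867-73096956 (P4HA1, minus), chr3:122384092-122384181 (FAM162A, plus), chr19:4968872-4968961 (KDM4B, plus), chr2:118088376-118088465 (INSIG2, plus), chr10:131981968-131982057 (BNIP3, minus), chr4:185396679-185396768 (ANKRD37, plus) and chr1:203026372-203026461 (PPFIA4, plus).
ALDOC: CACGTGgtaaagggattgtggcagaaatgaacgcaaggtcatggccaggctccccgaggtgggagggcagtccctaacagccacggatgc
P4HA1: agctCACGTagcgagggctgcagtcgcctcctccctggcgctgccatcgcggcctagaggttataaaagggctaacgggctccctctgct
FAM162A: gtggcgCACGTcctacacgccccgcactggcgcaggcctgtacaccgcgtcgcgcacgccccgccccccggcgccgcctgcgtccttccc
KDM4B: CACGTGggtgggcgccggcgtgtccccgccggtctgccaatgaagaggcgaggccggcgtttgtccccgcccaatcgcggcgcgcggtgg
INSIG2: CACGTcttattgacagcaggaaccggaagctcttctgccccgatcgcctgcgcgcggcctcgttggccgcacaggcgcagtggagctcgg
BNIP3: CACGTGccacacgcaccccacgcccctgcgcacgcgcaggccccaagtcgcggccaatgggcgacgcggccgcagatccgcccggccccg
ANKRD37: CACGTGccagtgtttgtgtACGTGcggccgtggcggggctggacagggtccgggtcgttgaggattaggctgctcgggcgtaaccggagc
PPFIA4: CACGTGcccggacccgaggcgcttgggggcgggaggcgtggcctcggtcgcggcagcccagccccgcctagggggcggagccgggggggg

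The E-box form of the core stands in the windows of ALDOC, KDM4B, BNIP3, ANKRD37 and PPFIA4, and those of P4HA1, FAM162A and INSIG2 hold the core on the other strand only. FAM162A, a mitochondrial protein, and INSIG2, a brake on sterol synthesis, were added by the pairing (0.89 ± 0.30 and 0.41 ± 0.11, adjusted p = 0.0473 and 0.0218, up to 0.213 and 0.117 with 1 library left out).

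Glycolysis was split. Of 24 genes 8 rose and 1 fell with the block, 4 rose without it, and 9 rose and 1 fell at 48 h alone, with a list median of 0.41. ALDOC, an aldolase, had 1768, 1592 and 1922 normalised read counts in the DMSO libraries numbered 1, 2 and 3 and 9335, 1939 and 5496 in the GSI libraries. The GSI library numbered 2 stood only just above the highest DMSO library and the other GSI libraries far above it (1.40 ± 0.34; adjusted p = 0.014 with and 0.0793 without the block, up to 0.0778 with 1 library left out). SLC2A3, the glucose transporter GLUT3, rose by 1.11 (adjusted p = 0.00905, 0.0523 without DMSO 1). SLC16A1, the lactate transporter MCT1, fell (−0.40 ± 0.07, adjusted p = 0.00262). Medians by pair were 0.83, 0.06 and 0.23. Under upper-quartile scaling 12 were called higher. Leaving out DMSO 1 left 2, and leaving out number 1 left 1. ACGTG stood in 8 of 22 matched promoters of this list.

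**Figure D4:**
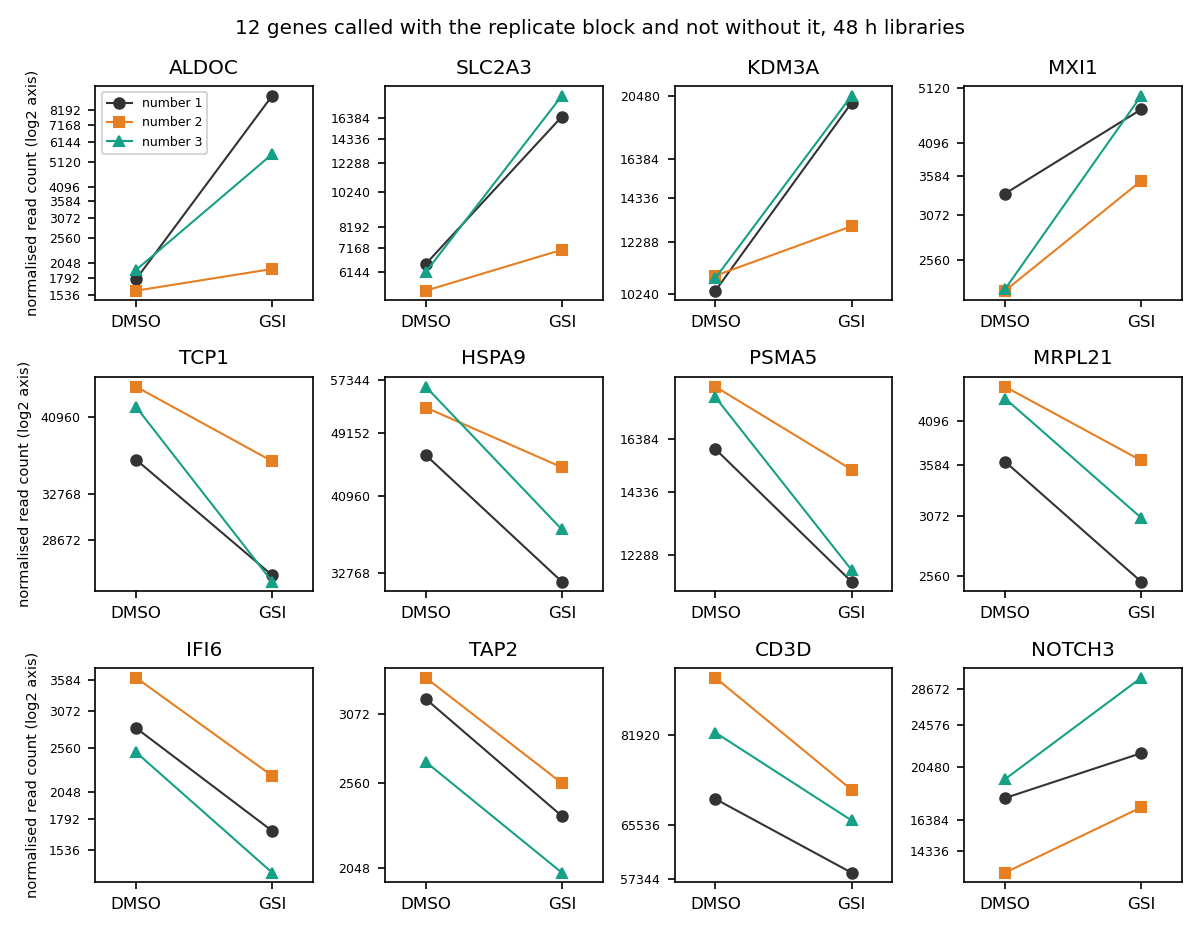
Normalised read counts (log2 axis) of 12 genes in the 3 DMSO and 3 GSI libraries at 48 h, with a line joining the libraries of 1 number; each gene was called with the replicate block and not without it. ALDOC, SLC2A3, KDM3A, MXI1 and NOTCH3 rise and the other 7 genes fall in all 3 pairs, and in ALDOC, SLC2A3 and KDM3A the line of number 2 rises least.

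Energy and precursor metabolism otherwise leaned lower. Of 57 nuclear-encoded respiratory chain genes 17 fell and 1 rose with the block, 2 fell without and 13 fell and 1 rose at 48 h alone (list median −0.20). NDUFC2, of complex I, fell by 0.46, and SDHB, the iron-sulphur subunit of complex II, by 0.35 (adjusted p = 0.00235 and 0.00852). Of 35 nucleotide and polyamine synthesis genes 17 fell and none rose with the block, 6 fell without and 15 at 48 h alone (list median −0.22). UMPS, which makes UMP, stood at 5824, 6925 and 6701 normalised read counts in DMSO 1, 2 and 3 and at 4185, 5523 and 3986 in GSI 1, 2 and 3. Its groups did not overlap (−0.52 ± 0.10; adjusted p = 0.00447 with and 0.0518 without the block). AMD1, which supplies the propyl donor of polyamines, and AZIN1, which keeps ornithine decarboxylase from being degraded, each fell by 0.34 (adjusted p = 0.00379 and 0.00258). Under upper-quartile scaling the respiratory count was 6. It dropped to 5 without DMSO 3 and to 0 without number 1, and the nucleotide count to 11 and 1.

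Splicing and nuclear transport followed the same direction. Of 50 splicing factors 29 fell and 2 rose with the block, 11 fell and 1 rose without, and 23 fell and 1 rose at 48 h alone (list median −0.26). HNRNPA1, an abundant splicing repressor, was measured at 176766, 184175 and 199869 in the DMSO and 128415, 157823 and 163306 in the GSI libraries (normalised read counts, numbers 1, 2 and 3). All GSI libraries were below all DMSO libraries (−0.33 ± 0.06; adjusted p = 0.00396 with and 0.0563 without the block), though this gene has many processed copies. PRPF6 and PRPF38A, of the tri-snRNP and the spliceosome, fell by 0.29 and 0.27 (adjusted p = 0.00275 and 0.00363). Of 29 nuclear import and export genes 17 fell and none rose with the block, 4 fell without and 15 at 48 h alone (list median −0.29). The importins IPO5 and IPO7 fell by 0.36 and 0.32, and KPNA4, an importin alpha, by 0.29 (adjusted p = 0.00226, 0.00773 and 0.00612). Under upper-quartile scaling 17 splicing and 9 transport genes were called lower. Without DMSO 3 the splicing count was 15 and without GSI 1 the transport count was 8, and without number 1 they were 1 and 0.

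Cell cycle genes were less evenly affected. Of 43 DNA replication genes 13 fell and none rose with the block, 4 fell without and 8 at 48 h alone (list median −0.13). FEN1, the flap endonuclease, and MCM4 and MCM7, of the replicative helicase, fell by 0.37, 0.30 and 0.22 (adjusted p = 0.0142, 0.0164 and 0.0161). Each lost its call when some single libraries were left out (adjusted p up to 0.0713, 0.0837 and 0.0829), and MCM7 was not called at 48 h alone (adjusted p = 0.0812). Of 37 mitosis genes 9 fell and none rose with the block, 1 fell without and 8 at 48 h alone. UBE2C, a ubiquitin-conjugating enzyme of the anaphase-promoting complex, had 18485, 18675 and 16372 normalised read counts in the DMSO libraries numbered 1, 2 and 3 and 12202, 16810.4 and 10206.5 in the GSI libraries. The GSI library numbered 2 lay inside the DMSO range, and the other GSI libraries lay below it (−0.48 ± 0.12; adjusted p = 0.0141 with the block, up to 0.0729 with 1 library left out). The list median was lower in pairs 1 and 3 and 0.07 in pair 2, and without both GSI libraries numbered 2 the number called lower was 32. Without DMSO 1 it was 1, under upper-quartile scaling 2, and without number 1 it was 0. The replication count was 5 under that scaling, 4 without DMSO 3 and 1 without number 1. Of the D-cyclin list CDK6 fell (−0.52 ± 0.10, adjusted p = 0.00406) and CCND1, the cyclin D1 gene, fell most among the members named (−1.96 ± 0.20, adjusted p = 0.000401), both also without the block.

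Most lower calls among interferon-stimulated and antigen presentation genes needed the pairing, as did 1957 of the 2989 lower calls among all genes kept. Of 38 interferon response genes 12 fell and 2 rose with the block, 3 fell and 1 rose without, and 12 fell and 2 rose at 48 h alone (list median −0.28). IFI6, an interferon-induced mitochondrial protein, stood at 2822, 3629.7 and 2499 normalised read counts in DMSO 1, 2 and 3 and at 1687, 2222 and 1369 in GSI 1, 2 and 3. The GSI library was lower by 0.74, 0.71 and 0.87 in pairs 1, 2 and 3, and the groups did not overlap (−0.77 ± 0.09; adjusted p = 0.000582 with, 0.057 without the block and 0.00564 at 48 h alone). IRF9, an interferon regulatory factor, rose by 0.46 (adjusted p = 0.0105, up to 0.057 with 1 library left out). NRIR, a long non-coding RNA known as a regulator of the interferon response, was measured at 55.5, 95.5 and 39.3 in the DMSO and 33.1, 34.9 and 14.6 in the GSI libraries (normalised read counts, numbers 1, 2 and 3). Each pair fell, with all GSI values below all DMSO values (−1.17 ± 0.24; adjusted p = 0.00607 with and 0.0684 without the block). Of 19 MHC class I presentation genes 7 fell and 1 rose with the block, 1 fell without, and 6 fell and 1 rose at 48 h alone (list median −0.24). TAP2, a subunit of the peptide transporter, had 3197, 3380.4 and 2708 normalised read counts in the DMSO libraries numbered 1, 2 and 3 and 2348.5, 2561 and 2023 in the GSI libraries. The differences were −0.44, −0.40 and −0.42 in pairs 1, 2 and 3, and the total was −0.42 ± 0.06 (adjusted p = 0.00172 with and 0.0659 without the block). The immunoproteasome subunits PSMB8 and PSMB9 fell by 0.44 and 0.42 (adjusted p = 0.00448 and 0.00786). Under upper-quartile scaling 8 interferon genes were called lower. Without GSI 1 the interferon count was 6, without DMSO 1 the MHC count was 5, and without number 1 they were 3 and 0.

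T cell genes moved both ways, beside 11.8% of all genes kept that rose and 15.5% that fell with the block. Of 36 genes of pre-TCR and TCR signalling 9 rose and 8 fell with the block, 6 and 2 without it, and 6 and 6 at 48 h alone, and the median of −0.04 became 0.05 under upper-quartile scaling. CD3D, a chain of the receptor complex, stood at 69848, 94339.6 and 82345 normalised read counts in DMSO 1, 2 and 3 and at 58190.1, 71481 and 66239.7 in GSI 1, 2 and 3. The groups overlapped between DMSO 1 and GSI 2, yet every pair fell (−0.33 ± 0.06; adjusted p = 0.0034 with and 0.119 without the block). CBL, a ubiquitin ligase that damps receptor signalling, rose by 0.34 (adjusted p = 0.00454), and SLA2, an adaptor that also damps it, fell by 0.42 (adjusted p = 0.00691). Of 36 V(D)J recombination and T-lineage factor genes 9 rose and 6 fell with the block, 3 and 1 without, and 6 and 7 at 48 h alone. IKZF2, the Helios factor, and TOX, a factor of thymocyte development, rose by 0.40 and 0.36 (adjusted p = 0.00895 and 0.00929, 0.0543 and 0.0589 without DMSO 1). CD7, a surface marker of T cells, fell by 0.38 (adjusted p = 0.00752). DMSO 1 mattered most for the first list, where 3 were higher and 5 lower without it, and GSI 3 for the falls of the second, of which 1 was left. Under upper-quartile scaling 5 of the first list and 2 of the second were called lower. Without number 1, 1 rose and 1 fell in the first list and 3 rose and 1 fell in the second.

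All 6 GIMAP GTPases kept, a family that supports lymphocyte survival, had negative differences (list median −0.73), and 4 fell with the block and at 48 h alone against 1 without it. GIMAP7 was measured at 398, 668 and 294 in the DMSO and 205, 239 and 198 in the GSI libraries (normalised read counts, numbers 1, 2 and 3). The GSI libraries were close together while the DMSO libraries spread more than 2-fold, without overlap (−1.0 ± 0.19; adjusted p = 0.00457 with and 0.0604 without the block). GIMAP2 and GIMAP6 fell by 0.53 and 0.77 (adjusted p = 0.0301 and 0.0125, up to 0.122 and 0.0597 with 1 library left out). TNFSF10, the death ligand TRAIL, had 1003.5, 1583 and 531 normalised read counts in the DMSO libraries numbered 1, 2 and 3 and 409, 358 and 344 in the GSI libraries. DMSO 2 was highest and the 3 GSI values were the lowest (−1.35 ± 0.29; adjusted p = 0.00827 with and 0.0562 without the block). C3AR1, the receptor for complement C3a, fell by 1.32 (adjusted p = 0.00536). RGS16, a brake on G-protein signalling, and CXCR3, a chemokine receptor, had larger differences of −1.64 ± 0.52 and −2.49 ± 0.80, but adjusted p of 0.0383 and 0.0425 that rose to as much as 0.158 and 0.168 with 1 library left out. LSP1, a leukocyte actin-binding protein, stood at 26.2, 12.3 and 13.5 normalised read counts in DMSO 1, 2 and 3 and at 300.4, 21.5 and 108 in GSI 1, 2 and 3. GSI 2 lay within the DMSO range, and the other GSI libraries were high (2.38 ± 0.45; adjusted p = 0.00461 with and 0.123 without the block). Without DMSO 1, 2 GIMAP genes were called, and none without number 1.

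Of the 16 NOTCH1 target genes kept, 7 fell and 1 rose with the block, 3 fell without it, and 4 fell and 1 rose at 48 h alone. NRARP, DTX1 and SHQ1 fell either way (−0.83 ± 0.17, −0.49 ± 0.10 and −0.55 ± 0.11). MYC was measured at 11743, 13159 and 12149.8 in the DMSO and 8179.6, 10756 and 10346 in the GSI libraries (normalised read counts, numbers 1, 2 and 3). No GSI value reached a DMSO value, and the fall was smallest in number 3 (−0.35 ± 0.10; adjusted p = 0.0247 with the block, 0.0864 without, 0.0288 at 48 h alone and up to 0.119 with 1 library left out). PTCRA, the pre-TCR alpha chain, HEY1, a transcriptional repressor, and NOTCH1 itself were called lower in the 12-library block (−0.54 ± 0.16, −1.21 ± 0.37 and −0.31 ± 0.10; adjusted p = 0.0274, 0.0362 and 0.0435) and not at 48 h alone (0.0767, 0.118 and 0.0772). With 1 library left out their adjusted p reached 0.13, 0.161 and 0.191. NOTCH3, a NOTCH receptor induced by NOTCH1, went the other way and had 17969.6, 13059.7 and 19483 normalised read counts in the DMSO libraries numbered 1, 2 and 3 and 21766, 17268 and 30047.5 in the GSI libraries. The groups overlapped, and the GSI library was the higher in each pair (0.43 ± 0.09; adjusted p = 0.00617 with and 0.172 without the block). HES1, HES4, HES5, HEY2, HEYL, IL7R, IGF1R and CR2 did not pass, with differences of −0.33, −0.34, −0.28, −1.08, 0.09, −0.38, −0.08 and 0.34. The list median was −0.52, −0.50 and −0.09 in pairs 1, 2 and 3. Under upper-quartile scaling 4 targets were called lower, without DMSO 1 there were 3, and without number 1 only 1 was.

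Genes of quiescence and of the clock also leaned higher. Of 26 FOXO and quiescence genes 9 rose and 1 fell with the block, 4 rose without, and 11 rose and 1 fell at 48 h alone (list median 0.36). KLF7, a Krüppel-like factor, stood at 2136, 1684 and 2393 normalised read counts in DMSO 1, 2 and 3 and at 2887, 2372 and 2907 in GSI 1, 2 and 3. Levels overlapped between groups and rose in each pair (0.40 ± 0.08; adjusted p = 0.00687 with and 0.184 without the block). BCL6, a transcriptional repressor, rose by 0.86 (adjusted p = 0.0127, up to 0.067 with 1 library left out). Of 21 circadian clock genes 12 rose and 2 fell with the block, 6 and 1 without, and 11 and 1 at 48 h alone (list median 0.37). BMAL1, CRY2 and NR1D1, an activator and 2 repressors of the clock, rose by 0.28, 0.37 and 0.68 (adjusted p = 0.00923, 0.0131 and 0.0174, up to 0.0598, 0.0739 and 0.0888 with 1 library left out). The quiescence count dropped to 3 without DMSO 1 and the clock count to 5 without GSI 1, and without number 1 they were 1 and 2. Of 12 fatty acid synthesis genes 4 rose with the block and at 48 h alone, and 3 without it. SCD, the stearoyl-CoA desaturase, rose by 0.90, FADS2, a desaturase, by 0.49 and ACACB, an acetyl-CoA carboxylase, by 0.45, the last only with the block (adjusted p = 0.00431 with and 0.0521 without). Without number 1, 0 of these 12 were called.

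Of the 15 largest rises and 15 largest falls among genes added by the pairing, 11 rises and 7 falls lost their call when some 1 library was left out. CDHR1, a protocadherin-like membrane protein, was measured at 38.1, 64.9 and 7.86 in the DMSO and 1031, 135 and 99.8 in the GSI libraries (normalised read counts, numbers 1, 2 and 3). GSI 1 was far above the others, although the lowest GSI value still exceeded the highest DMSO value (3.09 ± 0.72; adjusted p = 0.0114 with the block, up to 0.0653 with 1 library left out). IGFBP2, an insulin-like growth factor binding protein, had 9794, 5775 and 5642 normalised read counts in the DMSO libraries numbered 1, 2 and 3 and 43399, 6526 and 25871 in the GSI libraries. GSI 2 lay inside the DMSO range, and GSI 1 and 3 were above it (1.51 ± 0.43; adjusted p = 0.0268 with and 0.127 without the block, up to 0.124 with 1 library left out). BCL2L2, the survival factor BCL-w, stood at 677, 492 and 694 normalised read counts in DMSO 1, 2 and 3 and at 1381, 845 and 1134.5 in GSI 1, 2 and 3. These groups stood apart, and the call held whichever library was left out (0.84 ± 0.11; adjusted p = 0.00123 with and 0.0544 without the block). Falls included CACNA1A, a calcium channel subunit (−0.99 ± 0.20), NPTXR, a neuronal pentraxin receptor (−0.99 ± 0.19), SGPP2, a sphingosine-phosphate phosphatase (−1.06 ± 0.22), and MYLK2, a myosin light chain kinase (−1.07 ± 0.24), with adjusted p of 0.00582, 0.00523, 0.00676 and 0.00924. The largest differences of all called genes did not need the block: PPFIA4, ADM, FGFBP2 and MIR210HG rose and TBX18, GZMA, KCNJ2 and PRKCE fell with and without it.

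Long non-coding genes leaned higher. Of 2984 kept, 412 rose and 132 fell with the block, 139 and 48 without, and 278 and 72 at 48 h alone, with a list median of 0.19. Of 13445 protein-coding genes 1514 rose and 2719 fell, and of all genes kept 11.8% rose and 15.5% fell. The share of long non-coding genes that rose was thus close to that of all genes, and the share that fell was smaller. In all 18.2% were called, against 27.3% of all genes, at a median SE of 0.25, against 0.10 for protein-coding genes. Under upper-quartile scaling 544 were called higher and 89 lower. Without DMSO 1, 203 long non-coding genes were called higher and 42 lower, and without number 1 the counts were 26 and 6. No source used here says that reads were counted by strand, so those of an antisense RNA and its partner cannot be told apart. LINC00632, the host transcript of CDR1-AS, annotated as antisense and so under that limit, was measured at 51.6, 28.6 and 67.3 in the DMSO and 129, 104 and 206 in the GSI libraries (normalised read counts, numbers 1, 2 and 3). The 3 GSI values were the highest of the 6, and the call held whichever library was left out (1.58 ± 0.23; adjusted p = 0.00142 with and 0.0626 without the block). LINC02649 and LINC01819 had larger differences (2.76 ± 0.71 and 2.80 ± 0.67) with GSI 2 close to the DMSO libraries, and adjusted p of 0.017 and 0.0126 that reached 0.0923 and 0.0709 with 1 library left out. HIF1A-AS3 rose by 2.25 (adjusted p = 0.00899, 0.0534 without GSI 1). Of 19 small nucleolar RNA host RNAs, 7 fell and none rose with the block, 3 fell without and 6 at 48 h alone. SNHG16 and SNHG25 fell by 0.48 and 1.14 (adjusted p = 0.00336 and 0.00418). Without DMSO 1, 4 of these 19 were called, and none without number 1.

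Most markers of other cell types were low. The exceptions were CD79A, at 802 to 3042 normalised read counts in the DMSO libraries, and ITGAM, at 215 to 336. The summed level of 6 myeloid markers was 275 to 388 in the DMSO and 211 to 237 in the GSI libraries, most of it ITGAM, and that of 6 erythroid markers was 8.73 to 14.9 and 27.5 to 62.5. ALAS2, the erythroid heme synthesis enzyme, was the only erythroid, fibroblast or epithelial marker called (6.35, 9.09 and 3.37 in the DMSO and 43.3, 16.3 and 34.6 in the GSI libraries, adjusted p up to 0.0552 with 1 library left out), and the globin genes HBA1, HBA2 and HBB stayed below 1 in every library at 48 h. CD79A made up nearly all of the B cell sum of 808 to 3044 in the DMSO libraries and 851 to 936 in the GSI libraries. Their part in the results above was not tested.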

How the data were processed

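Poly-A RNA was sequenced in 12 CUTLL1 libraries, 3 each under DMSO or 1 µM Compound E at 12 and 48 h. The submitters' processing notes name TopHat2 2.0.10, HTSeq 0.6.1, DESeq2 and FastQC 0.10.1, with genome build hg19. For the roles of these tools, the annotation and strand in counting, nothing was given in the sources used here. What the authors deposited is a normalised signal: each gene's read count over the library's size factor. The values of every library were whole multiples of its smallest value above 0 (100% within 0.01), so whole reads could be recovered (73939612 to 160702764 per library). Values are not per gene length, so levels are compared within a gene only.

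Genes with a value of at least 10 in at least 3 of 12 libraries were kept (19281 of 62069 identifiers). limma 3.58.1 (R 4.3.3) with a trended prior was fitted to log2(value + 1) of the 12 libraries, with 1 mean for each of the 4 groups and the replicate number as an additive block. Fold changes are on that scale, which understates the change of low genes. Adjusted p is Benjamini-Hochberg over all genes kept, from this limma fit unless another is named, and genes were called under 0.05. The numbers were taken to pair the libraries because the comparison was set up with the replicate number as a block. Deviations of same-numbered GSI and DMSO libraries correlated only weakly, at 0.12 to 0.20 at 48 h and at 0.04 to 0.30 at 12 h. The same test without the block, and paired on the 6 libraries at 48 h, stands beside the blocked fit of 12 libraries. edgeR 4.0.16 and DESeq2 1.42.0 on recovered reads, other pseudocounts, filters and scaling, and omission of libraries were tried. The test was checked on simulated reads that held an effect of each number shared by all groups. They held no spread of treatment by number, so the check cannot show how the block acts where that spread is present, as here.

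The comparison, the 47 gene lists and the naming rule were chosen with earlier results of these data known. The rule took, among genes called only with the block, with a mean of at least 100 and the same sign in 3 pairs, the 15 largest rises and 15 largest falls. It also took the 4 largest of all called genes in each direction, 3 members of smallest p per list, 4 long non-coding genes in each direction at a mean of at least 50, and all NOTCH1 targets. Not every gene taken is described, and FAM162A, INSIG2, BNIP3, ANKRD37 and ALAS2 were chosen after their values were seen. Symbols were found for 16495 of the kept genes and biotypes (GENCODE 29) for 18344. Promoters are from RefSeq (GRCh38.p14), searched over 250 upstream bases on both strands for ACGTG (the hypoxia response core), CACGTG (the E-box), TTCNNGAA (a heat shock element) and TGGGAA (the RBPJ core).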

Additional observations from a re-analysis of the deposited data

Results flagged for a closer look

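GZMA encodes the cytotoxic protease granzyme A. Among the genes named here, only its difference between GSI and DMSO labels was called as changed between the 2 times, which does not show that the others were unchanged. Its log2 difference was −4.33 at 48 h and −0.74 at 12 h, so the effect at 48 h minus that at 12 h was −3.587 (limma interaction term of the blocked fit, adjusted p = 0.0376). At 48 h it had 232, 103 and 130 normalised read counts in the DMSO libraries and 5.09, 7.42 and 6.65 in the GSI libraries numbered 1, 2 and 3.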

How the results depend on the processing

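The replicate block decided the size of the result, and the pairing it rests on is weak at 48 h. Against 5261 genes called with the block, 1866 were called with no replicate block, 3221 with a block within each time, 2467 with no block on the 6 libraries at 48 h, and 2487 with a random effect of number within treatment and no block. With the block and that random effect together, chosen after seeing the data, 4497 were called. Of the 3395 genes called only with the block, alternatives gave in the same way 1752 (block, 48 h alone), 1439 (block within time), 738 (no block, 48 h alone) and 758 (random effect, no block). Leaving out 1 library, or 1 number, gave 425 to 6110 genes called and 66 to 4244 added by the block. On the 48 h libraries alone with the block, omission of a number, chosen after seeing the data, gave 1112, 3839 and 1348 called without numbers 1, 2 and 3, and 296, 2150 and 414 added. Of the 166 named genes called with the block, 17 were called with no replicate block on 12 libraries and 85 with no block on the 6 libraries at 48 h. Calls described as made only with the block or pairing are therefore those of the fit of 12 libraries. Signs turned only for uncalled genes: IGF1R at 0.014 under upper-quartile scaling. Leaving out libraries or numbers moved IGF1R from −0.13 to 0.011, CR2 from −0.0055 to 0.85 and HEYL from −0.15 to 0.43, with HEYL at −0.014 without GSI 3 and −0.12 without number 1. edgeR (5279), DESeq2 (5707), pseudocounts of 0.5 (5236) and 10 (5343) and a minimum of 50 (5068) gave counts within 1.5 times. The motif TTCNNGAA stood in 3 of 27 chaperone promoters (6.72% of all) and TGGGAA in 5 of 13 NOTCH1 target promoters (21.1% of all). Genes near the value of 10 rest on few reads.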

Other observations

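Feedback genes of growth signalling were split. Their counts stand against 11.8% of all genes kept that rose and 15.5% that fell with the block. Of 30 immediate early factors, DUSP phosphatases and related genes 5 rose and 6 fell with the block, 5 and 2 without it and 5 and 5 at 48 h alone. Under upper-quartile scaling 8 rose and 6 fell, and without number 1 the counts were 3 and 1. DUSP7, a phosphatase of ERK, had a log2 difference of −0.44 ± 0.08 (adjusted p = 0.00404 with and 0.0569 without the block), and IER5, an immediate early gene, one of −0.62 ± 0.10 (adjusted p = 0.00241 and 0.0916). SPRY2, an inhibitor of receptor tyrosine kinase signalling, had −0.48 ± 0.13 (adjusted p = 0.0187, up to 0.104 with 1 library left out). Of 28 JAK, STAT, SOCS and PIM genes 7 rose and 5 fell with the block and 3 and 1 without, 4 and 2 when DMSO 1 was left out, and 1 and 0 without number 1. PIM3, a survival kinase, had 7307, 7154 and 6229.8 normalised read counts in the DMSO libraries numbered 1, 2 and 3 and 5479.8, 6431 and 5005 in the GSI libraries. Its groups overlapped by GSI 2, and each pair fell (−0.29 ± 0.06; adjusted p = 0.0072 with and 0.123 without the block).

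Of 24 cholesterol synthesis genes 5 fell and 3 rose with the block, shares not far from the 15.5% and 11.8% of all genes kept. Without the block 1 fell and 1 rose, but under upper-quartile scaling 3 fell and 6 rose. Leaving out DMSO 1 left 3 that fell and 1 that rose, and leaving out number 1 left 0 and 1. IDI1, an isomerase of the pathway, had −0.31 ± 0.06 (adjusted p = 0.00726), and SQLE, squalene epoxidase, −0.28 ± 0.07 (0.0123, up to 0.0649 with 1 library left out). Of 25 genes of the ATF4 response to amino acid shortage 1 rose with the block, DDIT4, an inhibitor of mTORC1, at 1.48 ± 0.20 (adjusted p = 0.00122), and it was also called without the block. Without number 3, 8 of these genes were called lower and 1 higher. Of 16 chemokine receptor and egress genes 5 rose and 1 fell with the block and 3 rose without it, and none were called without number 1. ITGAL, the alpha chain of the integrin LFA-1, had 0.33 ± 0.07 (adjusted p = 0.0072 with and 0.133 without the block). The list medians were 0.01 (immediate early), 0.07 (JAK and STAT), 0.04 (cholesterol), 0.11 (ATF4) and 0.12 (egress), against −0.0039 for all genes kept. In the same order 36.7%, 42.9%, 33.3%, 4% and 37.5% of the members were called with the block, against 27.3% of all genes kept.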
